A study of Mus musculus with 24 samples.

Results

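The enzymes described here act in the breakdown of single amino acids in liver. They are Tat, Hpd, Hgd and Fah of the tyrosine route, Tdo2 of tryptophan, Hal of histidine, Sds of serine, Gls2 of glutamine and Oat of ornithine. They were taken by gene name from the deposited table of long RNA counts, where these 9 genes stood among 18314 entries. All 9 passed the filter on low counts and were tested among 13832 genes.

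Long RNA came from the livers of male, wild-type C57BL/6 mice in 3 groups with 4 libraries each, from a study that kept 9 mice per group. The control group was fed a normal diet and the HFD group a high-fat diet, which leads to fatty liver. The HFD plus HQHF group had the same high-fat diet and was given HQHF (Huatanqushihuoxue Formula), a herbal preparation, through gavage that started once 12 weeks of the diet had passed. The study design lists low, medium and high doses of HQHF, and the labels do not say which dose these libraries come from, nor the age of the mice. Whether each library is a mouse of its own is not written in the labels, so the p-values below measure the spread between these libraries.

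Amino acids that are not needed for protein are taken apart mainly in hepatocytes, whose products feed gluconeogenesis, ketone bodies and the urea cycle. Transcription of several of these enzymes is known to follow glucocorticoids, glucagon and fasting, and Tat and Tdo2 are textbook targets of the glucocorticoid receptor. Loss of single steps of the tyrosine route causes tyrosinemia (Tat, Hpd and Fah) or alkaptonuria (Hgd) in humans.

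The labels were checked against hepatocyte transcripts first. In 10 libraries a list of 10 secreted hepatocyte proteins, among them albumin and transthyretin, took 6.97% to 13.5% of all counts. In control 2 the list took 0.418% and in HFD plus HQHF 3 it took 0.0412%, and the adipocyte genes Adipoq (151648 and 47258 reads) and Plin1 (20841 and 47978 reads) were abundant there. The 9 enzymes together took 0.0222% and 0.0172% of counts in those libraries, against 0.509% to 0.921% in the other 10. The 2 libraries labelled liver thus lacked most hepatocyte RNA. They were left out by the rule that defined the members, which leaves 3 control, 4 HFD and 3 HFD plus HQHF libraries. With all 12 libraries in 1 model no member was called in any comparison, and the model called 7 genes in all for HFD against control (0.0503%) and 1 for HFD plus HQHF against HFD (0.00718%).

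Total counts in the 10 libraries ran from 36198931 to 46454404. Levels below are CPM (counts scaled to library size) after TMM, a method that sets libraries to a common scale on the bulk of their genes, rounded to 3 significant digits. CPM is not divided by transcript length, so levels are compared between libraries and not between genes. Among the 10, HFD 3 also carried adipocyte transcripts: the list of 8 took 0.0401% of its counts, with Adipoq at 1492 reads, Ucp1 at 389 and Lep at 36, while Lep had 0 reads in each of the other 9. Control 1 held pancreatic acinar transcripts at 0.198% of counts, against at most 0.00241% elsewhere. The part of either in the results below was not tested, and values without these libraries are given where they change a result.

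Upstream sequences are shown for the 4 enzymes that, with TMM, were called lower on the diet and higher with HQHF. Tat, which was not called higher with HQHF, is shown too. A link between the levels and these upstream sequences was not tested. They are the 250 bases before each RefSeq gene start in build GRCm38.p6, written 5′ to 3′ on the gene's strand, and 7 of the 9 members matched the table. Capitals mark matches, on either strand, to 8 motifs. The general ones were the TATA box, searched as TATAAA, and the CCAAT box, searched by those letters. For liver factors the search used TGTTCT for the glucocorticoid receptor, TGTTTNC for forkhead factors, TTGCNNAA for C/EBP factors, CAAAGTCC for HNF4, TGACGTCA for the cAMP response element and GTTAAT for HNF1. No member here had matches that overlap one another.
Hpd, chr5:123182724-123182973, minus strand: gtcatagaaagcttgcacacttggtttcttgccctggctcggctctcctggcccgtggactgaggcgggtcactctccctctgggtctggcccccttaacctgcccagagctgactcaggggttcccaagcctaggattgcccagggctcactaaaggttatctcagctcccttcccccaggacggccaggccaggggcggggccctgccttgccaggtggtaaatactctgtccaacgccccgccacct
Hgd, chr16:37579903-37580152, plus strand: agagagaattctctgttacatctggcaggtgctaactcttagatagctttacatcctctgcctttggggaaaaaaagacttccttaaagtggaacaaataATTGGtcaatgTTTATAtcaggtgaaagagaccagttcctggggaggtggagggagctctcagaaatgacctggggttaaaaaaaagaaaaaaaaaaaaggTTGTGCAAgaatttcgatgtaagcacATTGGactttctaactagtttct
Fah, chr7:84605943-84606192, minus strand: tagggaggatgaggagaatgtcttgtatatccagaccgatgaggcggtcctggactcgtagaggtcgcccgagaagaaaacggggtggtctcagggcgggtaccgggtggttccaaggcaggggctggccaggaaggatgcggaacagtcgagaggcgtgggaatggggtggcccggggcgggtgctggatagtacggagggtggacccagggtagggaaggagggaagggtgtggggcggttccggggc
Tdo2, chr3:81975729-81975978, minus strand: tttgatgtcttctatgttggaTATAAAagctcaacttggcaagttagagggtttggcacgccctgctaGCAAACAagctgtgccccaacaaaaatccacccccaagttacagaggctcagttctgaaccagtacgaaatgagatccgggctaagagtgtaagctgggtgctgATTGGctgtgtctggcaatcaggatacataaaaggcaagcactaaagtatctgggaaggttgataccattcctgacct
Tat, chr8:109990186-109990435, plus strand: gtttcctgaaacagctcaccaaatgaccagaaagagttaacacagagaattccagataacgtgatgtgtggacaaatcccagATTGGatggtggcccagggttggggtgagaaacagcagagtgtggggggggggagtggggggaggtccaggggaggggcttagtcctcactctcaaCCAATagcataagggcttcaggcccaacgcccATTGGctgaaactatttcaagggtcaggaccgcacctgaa

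The start regions of Hpd and Fah held none of the 8 motifs and were rich in G and C, at 62.8% and 64.4% against a median of 52.4% over all promoters of the table. Hgd, at 38.8% G and C, held 4 matches, among them a C/EBP core 42 to 49 bases before the start. Tdo2 had a TATA box match 224 to 229 bases before its start, a forkhead core and a CCAAT box, and Tat had 3 CCAAT boxes. CCAAT was present in 5 of the 7 members with a sequence and in 33.9% of 32841 promoters of the same length, and TATAAA in 3 of 7 and in 12.4%. The C/EBP core was found in 2 of 7 (9.57% of all promoters) and the forkhead core in 1 of 7 (17.8%). The glucocorticoid receptor motif (16.1%), the HNF4 core (1.2%), the cAMP response element (1.55%) and the HNF1 motif (6.43%) had no match in the 7 windows, which says only that these letters are not there.

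Most of the enzymes were lower in liver RNA of HFD mice than of control mice, with the largest called differences at Oat, Hpd and Tdo2. By edgeR's quasi-likelihood test with Benjamini-Hochberg adjustment over all 13832 genes, Hpd, Hgd, Fah, Tdo2, Hal and Oat fell, and Tat, Gls2 and Sds were not called. That is 6 of 9 members, where 9.89% of all genes were called lower and 26.2% were called in either direction. For 8 of 9, all but Sds, every HFD library lay below every control library, an arrangement that held for 15.9% of all genes. The count was 6 without HFD 3, with Gls2 in place of Hal, and 4 without control 1, where Hal and Oat were not called. In those fits 28.5% and 11% of all genes were called in either direction. In bulk RNA fewer hepatocytes in a piece of liver and less RNA of an enzyme per hepatocyte cannot be told apart.

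The size of the fall depended on how libraries were scaled. TMM factors were 0.763 to 0.892 in control libraries, 1.2 to 1.42 in HFD and 0.823 to 0.939 in HFD plus HQHF, so TMM lowered HFD levels beside a scaling by library totals. The median log2 fold change of the 9 members was -0.96 with TMM, -0.34 with library totals and -0.29 with the secreted hepatocyte proteins as the reference (the hepatocyte reference), beside 0.06 for all genes tested with TMM. With library totals, which moved the median of all genes to 0.66 and called 52% of them, only Hpd (log2 fold change -0.91, adjusted p = 0.00487) and Tdo2 (-0.81, adjusted p = 0.0131) were called, and with the hepatocyte reference, which moved it to 0.81, no member was. Of all genes called, 62.3% were higher with TMM, 97.9% with library totals and 98.9% with the hepatocyte reference. That reference is a sum of counts, in which Alb (mean 88800 CPM in control) and Trf (16300) weigh most. With it the standard error (SE) was 0.35 to 0.38 for Hpd, Hgd, Fah and Tdo2, beside 0.18 to 0.21 with TMM. For Hal and Sds it was smaller (0.35 and 0.37, beside 0.37 and 0.45). The 6 called members kept a negative sign under all 19 alternative settings. As a plain share of all counts, the 9 enzymes together took 0.798% to 0.921% in control, 0.509% to 0.622% in HFD and 0.668% to 0.895% in HFD plus HQHF libraries. HFD libraries formed the lowest group in that share with no overlap. Such a share is a scaling by library totals, and abundant members such as Hpd weigh most in it.

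**Figure D1:**
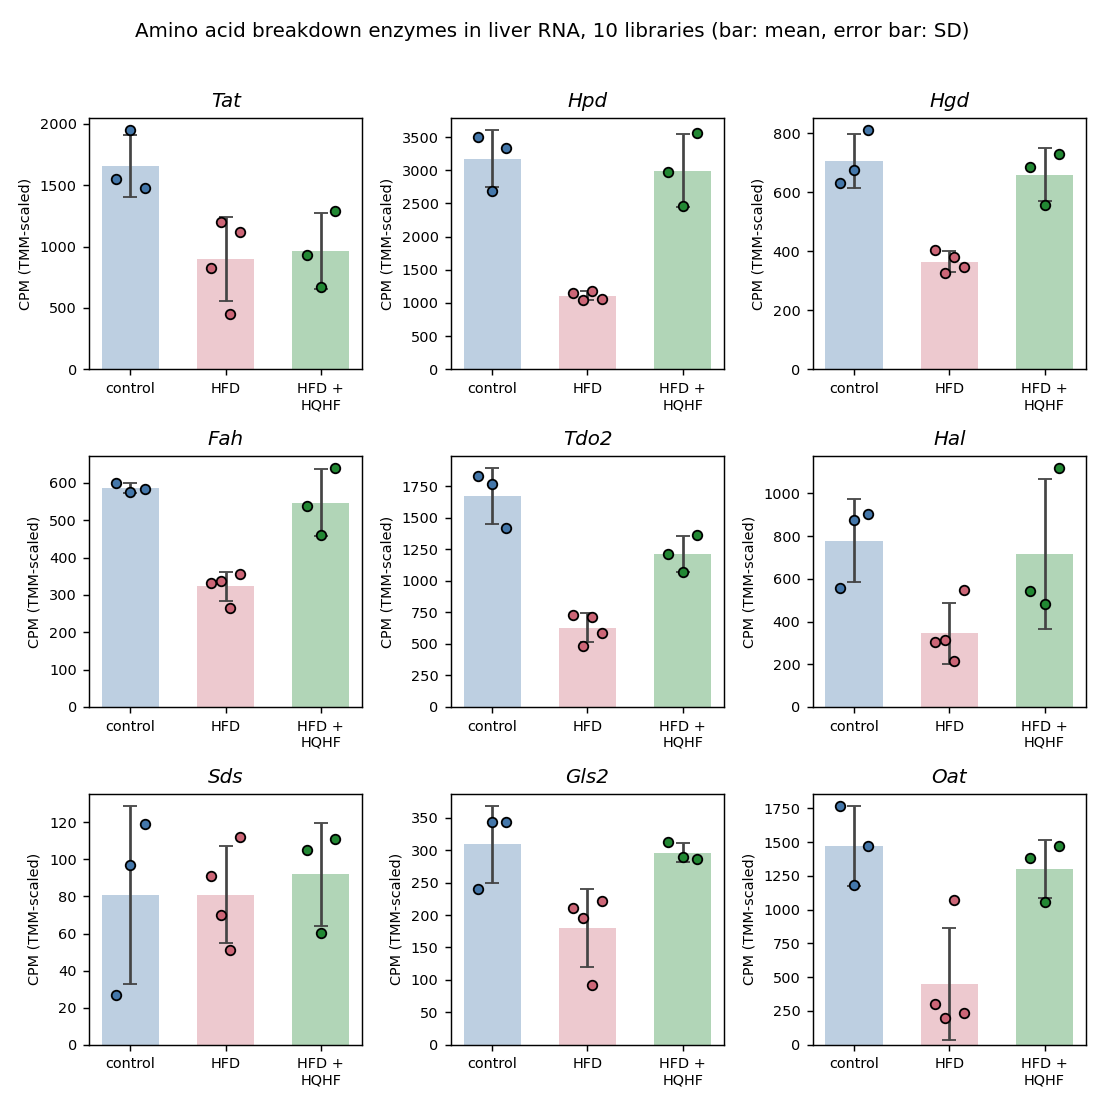
TMM-scaled CPM (vertical axes, each from 0) of the 9 enzymes by group, with points for the 10 libraries, bars for group means and error bars for the SD (n = 3 control, 4 HFD and 3 HFD plus HQHF). HFD points lie below all control points in 8 panels, with 1 HFD library (1070 CPM) far above the other 3 (198 to 303 CPM) for Oat, and Sds alone shows the 3 groups on top of each other.

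Tyrosine breakdown begins with Tat, tyrosine aminotransferase (ENSMUSG00000001670), which turns tyrosine into 4-hydroxyphenylpyruvate. Its CPM was 1550, 1950 and 1480 in controls 1, 3 and 4, 827, 1200, 450 and 1120 in HFD 1 to 4, and 928, 670 and 1290 in HFD plus HQHF 1, 2 and 4. Control libraries were the highest with no overlap, and of the HQHF libraries 1 and 2 fell inside the HFD range and 4 just above it. The HFD difference was -0.89 ± 0.33 (log2 fold change ± SE, adjusted p = 0.0701) and was not called, while DESeq2 called it (-0.92, adjusted p = 0.0196). HFD plus HQHF differed from HFD by 0.10 ± 0.34 (adjusted p = 0.854, 95% interval -0.64 to 0.84), and this small difference turned to -0.44 with library totals and to -0.29 with the hepatocyte reference.

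Hpd, 4-hydroxyphenylpyruvate dioxygenase (ENSMUSG00000029445), makes homogentisate in the next step. Its CPM was 3510, 2690 and 3330 in control, 1150, 1050, 1180 and 1060 in HFD, and 2970, 2460 and 3560 in HFD plus HQHF. The 4 HFD libraries were close to one another, at 1110 ± 64.5 (SD, n = 4), and lay far below both other groups, which overlapped fully. Hpd fell by 1.52 ± 0.21 on the log2 scale in HFD against control (adjusted p = 0.00244). It was 1.43 ± 0.21 higher in HFD plus HQHF than in HFD (adjusted p = 0.00391), the member with the smallest p in both comparisons. With library totals that second difference was still called (0.87, adjusted p = 0.0074), the only member for which this was so, and with the hepatocyte reference it was not (0.88, adjusted p = 0.0998).

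Hgd, homogentisate dioxygenase (ENSMUSG00000022821), opens the ring of homogentisate. Libraries read 633, 674 and 811 CPM in control, 405, 325, 380 and 347 in HFD, and 687, 558 and 731 in HFD plus HQHF. Again the HFD libraries stood below both other groups without overlap, with means of 706 ± 93.5 in control, 364 ± 35.7 in HFD and 659 ± 90.3 in HFD plus HQHF (SD, n = 3, 4 and 3). The log2 fold change was -0.96 ± 0.18 for HFD against control (adjusted p = 0.00637) and 0.85 ± 0.18 for HFD plus HQHF against HFD (adjusted p = 0.0128). Neither held with library totals (-0.34, adjusted p = 0.136, and 0.30, adjusted p = 0.205). An lncRNA gene, Gm46559, overlaps Hgd in RefSeq, and since the strand setting of the authors' counting is not given in the sources used here, reads of the pair cannot be told apart.

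Fah, fumarylacetoacetate hydrolase (ENSMUSG00000030630), cleaves the last intermediate into fumarate and acetoacetate. The 3 control libraries were the tightest of any member, at 600, 575 and 584 CPM. HFD libraries read 332, 338, 265 and 355 CPM, and HFD plus HQHF libraries 539, 461 and 640. All HFD values were below all others, and the HQHF values lay on both sides of the control values. Fah fell by 0.86 ± 0.18 on the log2 scale with the diet (adjusted p = 0.00847) and was 0.76 ± 0.18 higher with HQHF than on the diet alone (adjusted p = 0.0174), and both calls were lost with library totals (-0.27, adjusted p = 0.214, and 0.22, adjusted p = 0.337). Unlike Hpd, Fah kept 2738 and 2789 reads in the 2 libraries that lacked hepatocyte RNA, where Hpd had 16 and 239.

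**Figure D2:**
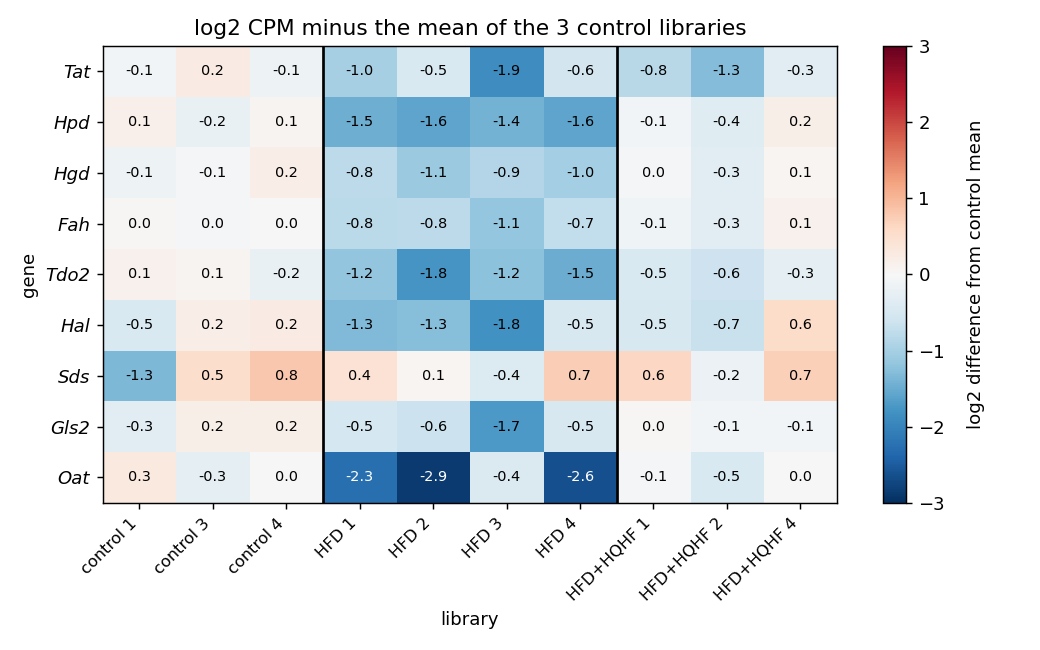
Each cell gives the log2 TMM-scaled CPM of 1 enzyme (vertical axis) in 1 of the 10 libraries (horizontal axis) minus its mean over the 3 control libraries. HFD columns are below 0 for Hpd, Hgd, Fah, Tdo2, Tat, Hal, Gls2 and Oat, with Oat in HFD 3 nearest to control, and the HFD plus HQHF columns are on average nearer 0 than the HFD columns.

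Tdo2, tryptophan dioxygenase (ENSMUSG00000028011), starts the kynurenine route and handles most tryptophan that the liver breaks down. Its CPM was 1830, 1770 and 1420 in control, 726, 487, 714 and 587 in HFD, and 1210, 1070 and 1360 in HFD plus HQHF. The 3 groups did not overlap, with HFD lowest and HFD plus HQHF between HFD and control. In HFD it fell by 1.41 ± 0.21 on the log2 scale (adjusted p = 0.00323), and it was 0.95 ± 0.21 higher with HQHF than in HFD (adjusted p = 0.0147). Beside control, HFD plus HQHF gave -0.46 ± 0.23 (adjusted p = 0.702, 95% interval -0.95 to 0.04), which was not called. With library totals the diet difference stood (-0.81, above) and the HQHF difference did not (0.39, adjusted p = 0.18).

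Hal, histidine ammonia-lyase (ENSMUSG00000020017), removes ammonia from histidine. It read 557, 875 and 906 CPM in control, 304, 315, 215 and 548 in HFD, and 543, 482 and 1120 in HFD plus HQHF. The groups were separated in HFD against control only by the gap between HFD 4 and control 1, and HFD plus HQHF overlapped both. Hal fell by 1.17 ± 0.37 on the log2 scale (adjusted p = 0.0392), and that call was lost in 10 of 19 alternative settings, among them without control 1 (-1.37, adjusted p = 0.0542) and without HFD 3 (adjusted p = 0.068). HFD plus HQHF against HFD was 1.05 ± 0.37 (adjusted p = 0.0669), not called, and passed without HFD 4 (1.36, adjusted p = 0.0301).

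Sds, serine dehydratase (ENSMUSG00000029597), converts serine to pyruvate and is known to follow glucagon and protein intake. It had 26.6, 96.8 and 119 CPM in control, 91.2, 69.8, 51.3 and 112 in HFD, and 105, 60.1 and 111 in HFD plus HQHF. The lowest value of all came from control 1 and the highest from control 4, so the control group alone spanned the full range. No difference was called: HFD against control gave 0.00 ± 0.45 (adjusted p = 0.999, 95% interval -1.01 to 1.01) and HFD plus HQHF against HFD 0.18 ± 0.45 (adjusted p = 0.804, 95% interval -0.83 to 1.19). With intervals this wide, a change of up to 2-fold in either direction on the diet is not excluded. Signs also moved with the scaling, to 0.61 for the diet and -0.37 for HQHF with library totals. Sds overlaps Plbd2 and Gls2 overlaps Spryd4 in RefSeq, so their reads carry the same doubt as those of Hgd, as do those of Tat, which overlaps the pseudogene Gm45795.

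Gls2, the liver glutaminase (ENSMUSG00000044005), releases ammonia from glutamine in periportal hepatocytes. Its CPM was 240, 344 and 343 in control, 211, 196, 92.2 and 221 in HFD, and 313, 289 and 286 in HFD plus HQHF. All HFD libraries lay below both other groups, HFD 3 by far the lowest. The test did not call either difference: -0.78 ± 0.27 with the diet (adjusted p = 0.0542) and 0.72 ± 0.27 with HQHF against HFD (adjusted p = 0.0818). The first passed without HFD 3 (-0.56, adjusted p = 0.0427), with RLE scaling (-0.82, adjusted p = 0.0462) and with DESeq2 (-0.82, adjusted p = 0.0152), and DESeq2 called the second too (0.76, adjusted p = 0.0289).

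Oat, ornithine aminotransferase (ENSMUSG00000030934), moves the amino group of ornithine and is most abundant in pericentral hepatocytes of normal liver. It read 1770, 1180 and 1470 CPM in control, 303, 198, 1070 and 235 in HFD, and 1380, 1060 and 1470 in HFD plus HQHF. HFD 1, 2 and 4 were far below every other library, and HFD 3 lay just above the lowest HQHF value. Oat fell by 1.71 ± 0.52 on the log2 scale in HFD (adjusted p = 0.036), and its difference of 1.53 ± 0.52 for HFD plus HQHF against HFD was not called (adjusted p = 0.0607). Without HFD 3 they were -2.58 ± 0.26 (adjusted p = 0.00058) and 2.41 ± 0.26 (adjusted p = 0.000953). The first call was lost in 12 of 19 settings, with log2 fold changes from -2.58 to -0.62.

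HFD 3 departed from the other HFD libraries in more than Oat. It had the lowest HFD value for Tat, Fah, Hal, Sds and Gls2. Of 10 periportal markers 6 had their lowest HFD value there: Cyp2f2 had 158 CPM against 330 to 908 in the other HFD libraries, Cps1 2070 against 4800 to 5550 and Ass1 1560 against 2910 to 3180, and the others were Aldh1b1, Cdh1 and Pigr. Pck1, Arg1, Hsd17b13 and Ctsc did not. Of 10 pericentral markers 3 were highest in HFD 3 among the HFD libraries, Cyp2e1 at 6570 CPM, Slc1a2 at 204 and Tbx3, and 1, Gulo, was lowest. Glul, outside that list, was highest there at 1310 CPM. In HFD 4, which had the lowest HFD value of 9 of the 10, Glul was at 282, Slc1a2 at 51.6 and Cyp2e1 at 1830 CPM, each the lowest of the HFD group. The part of zone markers and of the adipocyte transcripts in the values of HFD 3 was not tested. With TMM, 3 of 10 periportal markers fell in HFD, Arg1 by 1.10 and Pck1 by 1.12 on the log2 scale and Pigr, where 9.89% of all genes did. Of 10 pericentral markers 2 fell, Cyp2e1 by 1.55 and Slc1a2 by 1.26, and 1, Axin2, rose by 0.97. With library totals or the hepatocyte reference 0 of either list fell. Axin2 rose under both, as did Aldh1b1, and Cdh1 rose with the latter. Of 13832 genes, 7041 were called higher with library totals and 4703 with the hepatocyte reference.

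HQHF on the high-fat diet went with higher levels of the tyrosine enzymes below Tat and of Tdo2. Hpd, Hgd, Fah and Tdo2 were called higher in HFD plus HQHF than in HFD, 4 of 9 members, where 7.85% of all genes were called higher and 18.9% in either direction by the same edgeR test. For these 4 and for Gls2 every HQHF library lay above every HFD library, which held for 13.5% of all genes. Hal and Oat had estimates of 1.05 and 1.53 with wider errors and were not called, and Tat and Sds had estimates of 0.10 and 0.18. The median over the 9 members was 0.85 with TMM, 0.30 with library totals and 0.37 with the hepatocyte reference, beside -0.07 for all genes tested with TMM.

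This comparison shares the HFD libraries with HFD against control, so a low HFD value enters both. The count of 4 was 5 without HFD 3, where Oat was added, and 4 without control 1. In those fits 24.2% and 16.9% of all genes were called in either direction, beside 18.9% in the main fit. The count of members became 1 with library totals, 0 with the hepatocyte reference and 7 with DESeq2. Of all genes, 48%, 16.7% and 28.2% were called there. The count of members was also 1 without HFD plus HQHF 1, where Hgd (0.83, adjusted p = 0.0556), Tdo2 (0.96, adjusted p = 0.0569) and Fah (0.78, adjusted p = 0.0622) passed the threshold no longer at nearly the same size. Without that library the calls over all genes fell as well, from 2618 to 633 (4.44%). Of all genes called, 41.5% were higher with TMM, 2.07% with library totals and 1.64% with the hepatocyte reference, under which the median of all genes moved to -0.62 and -0.58.

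**Figure D3:**
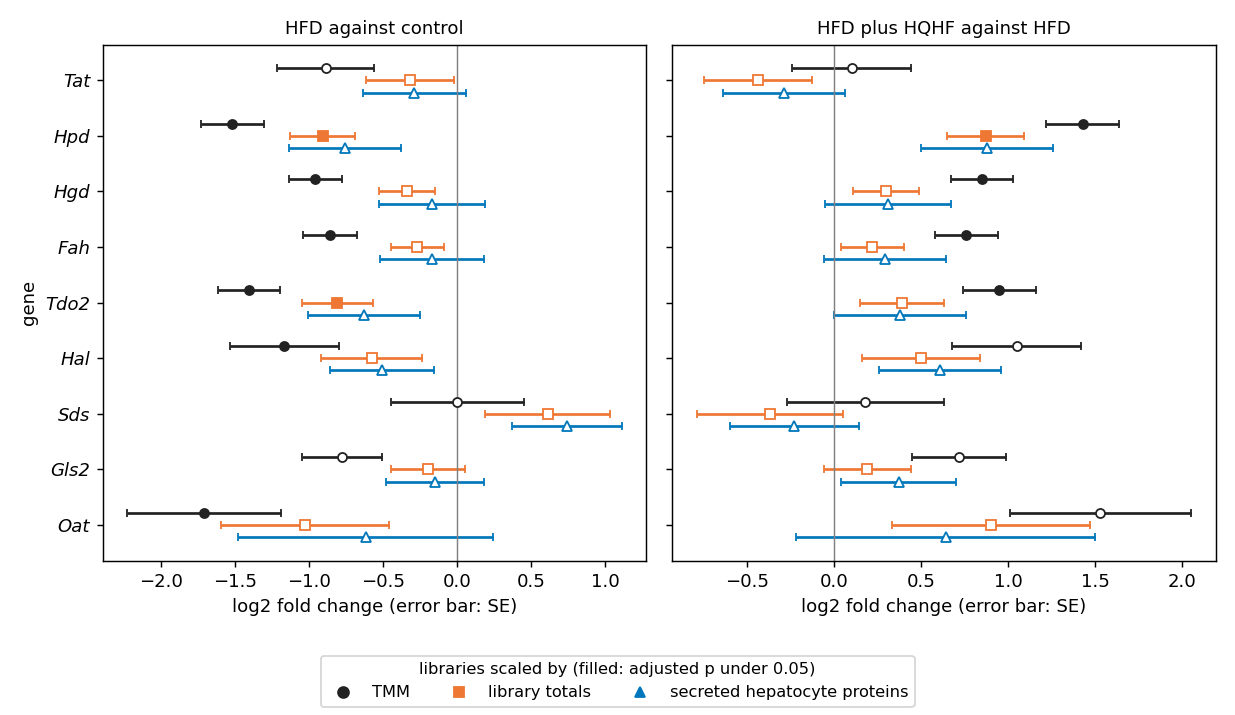
Log2 fold changes with their SE (horizontal axes) of the 9 enzymes (vertical axis) for HFD against control on the left and HFD plus HQHF against HFD on the right, under 3 scalings of the same 10 libraries, filled where the adjusted p was under 0.05. With TMM 6 and 4 members are filled, with library totals 2 and 1, and with the hepatocyte reference none, and the signs of Sds (right) and Tat (right) turn with the scaling.

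Beside control mice, the HFD plus HQHF livers showed no called difference in any of the 9 enzymes. By edgeR's quasi-likelihood test 0 of 13832 genes were called (0%), 1008 genes had an unadjusted p under 0.05, and DESeq2 called 72 genes and none of the members. Tat and Tdo2 had the largest differences and were the 2 members whose HQHF libraries all lay below all controls, which held for 6.72% of all genes. Tat stood at -0.79 ± 0.36 (adjusted p = 0.687, 95% interval -1.58 to 0.01). For the other 7 the estimates ran from -0.17 (Oat) to 0.18 (Sds), and 6 of them, Hpd, Hgd, Fah, Hal, Gls2 and Oat, turned from negative to positive with the hepatocyte reference. Their 95% intervals were narrowest for Hgd, -0.53 to 0.33, and Fah, -0.52 to 0.32, and widest for Oat, -1.40 to 1.06, and Sds, -0.90 to 1.26. The median over the 9 was -0.10, and that of all genes 0.02. This comparison shares its control libraries with HFD against control.

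Over the 10 libraries the members did not move as 1 block. Pearson's r of log2 CPM was 0.97 between Hgd and Hpd, 0.93 between Hpd and Tdo2 and 0.95 between Fah and Hpd, and -0.04 between Sds and Hpd. Once group means were taken out, r was 0.62 for Hgd and Hpd, 0.46 for Hpd and Tdo2 and 0.43 for Fah and Hpd, so group differences made up much of the first values. Inside groups the closest pair was Fah and Tat (0.90, and 0.70 before), and Oat ran against Gls2 (-0.91) and Tat (-0.75). These are descriptions over 10 libraries that share 1 scaling, and HFD 3, with its high Oat and low Gls2 and Tat, carries weight in the last pairs.

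Genes with the most similar course were sought among 11898 others with at least 1 CPM. The mean standardised level of the 9 members was followed most closely by Cyp4f15 (r = 0.984 over 10 libraries), a fatty acid hydroxylase, and by Dnmbp (0.975). Next came Fetub (0.97), a protein secreted by hepatocytes, D2hgdh (0.966), which oxidises D-2-hydroxyglutarate, and Dpyd (0.957), which starts pyrimidine breakdown. The mean standardised level itself was -1.23 to -0.56 in HFD libraries, 0.38 to 0.90 in control and -0.02 to 0.84 in HFD plus HQHF.

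The other enzymes of these and neighbouring routes were lower on the diet as well. Of 56 listed enzymes besides the members 55 were tested, and 35 fell and 0 rose in HFD against control, with a median log2 fold change of -0.79. Of all genes, 9.89% were called lower and 16.3% higher there. In HFD plus HQHF against HFD 30 were higher and 0 lower, with a median of 0.77, where 7.85% of all genes were called higher and 11.1% lower. Against control, HFD plus HQHF gave 0 calls. The diet differences were below 0 for 54 of the 55 with TMM, for 38 with library totals and for 29 with the hepatocyte reference. The counts shrank with library totals to 9 lower and 1 higher for the diet and to 9 higher and 0 lower for HQHF, and with the hepatocyte reference to 3 lower and 1 higher, and 3 higher and 0 lower. Over all genes, library totals called 154 lower and 7041 higher for the diet, and 137 higher and 6496 lower for HQHF. The hepatocyte reference called 50 lower and 4703 higher, and 38 higher and 2277 lower. For HQHF the total of 30 was also 14 without HFD plus HQHF 1 and 18 without HFD plus HQHF 2. In those fits 4.44% and 5.63% of all genes were called in either direction.

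Around the tyrosine members, all 3 other listed enzymes of phenylalanine and tyrosine breakdown fell with the diet and were higher with HQHF, though 2 of the 3 diet differences were above 0 with the hepatocyte reference (Qdpr at 0.01, Pcbd1 at 0.35). Gstz1, which isomerises maleylacetoacetate just before Fah, changed by -0.89 and 0.91, and Qdpr, which regenerates tetrahydrobiopterin, by -0.72 and 0.77 on the log2 scale. Pcbd1, its partner in that recycling, fell by 0.38 with TMM, a direction that also turned with library totals (0.21). Of 6 other enzymes of tryptophan breakdown, Ido2 of the same step as Tdo2 and 5 further down the route, 4 fell and 5 were higher with HQHF. Afmid, which makes kynurenine, went from 133 ± 4.56 CPM in control to 41.5 ± 13.2 in HFD and 161 ± 8.30 in HFD plus HQHF (SD, n = 3, 4 and 3). The HFD values were below all others, with log2 fold changes of -1.67 ± 0.22 (adjusted p = 0.0017) and 1.96 ± 0.22 (adjusted p = 0.00178). Kmo, the next hydroxylase, changed by -1.27 and 1.28.

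Beyond Hal, none of the 3 other histidine enzymes was called: Uroc1 gave -0.81 (adjusted p = 0.11), Amdhd1 -0.75 (adjusted p = 0.0548) and Ftcd -0.43 with the diet. Of 8 tested serine, glycine and threonine enzymes 6 fell and 5 were higher with HQHF, where Sds itself was not called. Of the 6, Gcsh turned to 0.09 with library totals and 0.25 with the hepatocyte reference, and of the 5, Amt turned to -0.02 with library totals. Shmt1, which links serine to folate, changed by -1.08 and 0.99, and Dmgdh, which demethylates dimethylglycine, by -1.09 and 0.81. Among 9 enzymes of glutamine, glutamate, proline and alanine 1 was called, Prodh, which starts proline breakdown (-0.89, then 1.14 with HQHF). Got2, the mitochondrial aspartate aminotransferase, gave -0.53 with the diet (adjusted p = 0.0564), with all HFD libraries below all control libraries, and 0.24 with HQHF. Gpt, an alanine aminotransferase, gave -0.47 (adjusted p = 0.185) and 0.79 (adjusted p = 0.0511), where the groups overlapped. The diet difference of Gpt was 0.14 with library totals and 0.25 with the hepatocyte reference.

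Transcripts of recruited macrophages and of stellate cells moved the other way from the enzymes. Of 8 markers of monocytes and recruited macrophages 7 rose in HFD and 7 were lower with HQHF. Of 7 stellate markers 6 rose and 5 were lower. Of all genes, 16.3% were called higher in HFD and 11.1% lower with HQHF. The macrophage list took 0.00233% to 0.00353% of counts in control, 0.0189% to 0.0759% in HFD and 0.00279% to 0.00317% in HFD plus HQHF, and the stellate list 0.0253% to 0.0346%, 0.0562% to 0.15% and 0.0298% to 0.0364%. None of these macrophage markers had 0 reads in any of the 10 libraries. Kupffer cells, the resident macrophages, differed: with TMM 2 of 6 markers, Clec4f and Timd4, fell in HFD and were higher with HQHF. None of the 6 was called the other way. With library totals Adgre1 and Cd5l were called higher in HFD, and Clec4f was called higher with HQHF. Under that scaling 7041 of 13832 genes were called higher and 154 lower in HFD, and 137 were called higher with HQHF. Of the 10 secreted hepatocyte proteins 5 fell in HFD and 4 were higher with HQHF with TMM. With library totals 2 fell, Apoa2 and Apoc3, 1 rose, Trf, and 0 were called with HQHF, while the share of counts of that list was 9.61% to 13.4% in control and 6.97% to 13.5% in HFD. The part of cell makeup in the levels of the 9 enzymes was not tested.

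Lysine and methionine routes had the lowest medians. All 4 lysine enzymes fell and were higher with HQHF (median -1.44 and 1.20): Aadat, which also acts on kynurenine, went from 134 ± 38.5 to 35.8 ± 5.33 and 102 ± 14.7 CPM. Its log2 differences were -1.91 ± 0.20 (adjusted p = 0.000932) and then 1.51 ± 0.20 (adjusted p = 0.00294). Gcdh and Aldh7a1 changed by -1.08 and -1.11, then by 1.10 and 1.05. Of 8 methionine and cysteine enzymes 6 fell and 3 were higher with HQHF. Ahcy, which splits S-adenosylhomocysteine, was at 3740 ± 501, 1210 ± 292 and 3930 ± 785 CPM, and Gnmt, which uses up methyl groups, changed by -1.57 and 1.56. Of 14 enzymes of branched-chain amino acids 11 fell and 9 were higher with HQHF, but 4 of the 11 were above 0 with library totals and 6 with the hepatocyte reference, as 2 of the 9 were at or below 0 with each. Ivd changed by -0.85 and 0.92, Mccc2 by -0.90 and 0.79 and Acadsb by -0.90 and 0.68.

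**Figure D4:**
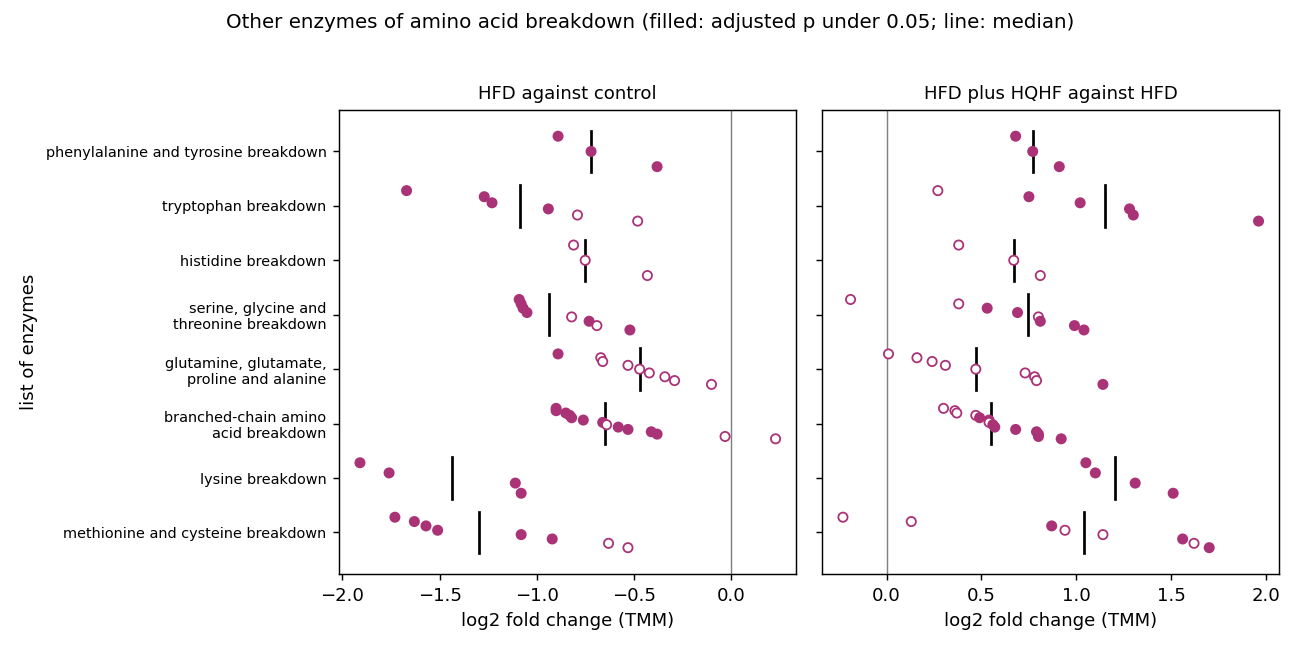
Log2 fold change with TMM (horizontal axes) of 55 other enzymes of amino acid breakdown, by list (vertical axis), for HFD against control on the left and HFD plus HQHF against HFD on the right, with 1 point per gene, filled where the adjusted p was under 0.05, and a line at each list's median. All plotted list medians are below 0 on the left, from -1.44 (lysine) to -0.47 (glutamine, glutamate, proline and alanine) and above 0 on the right, and no filled point lies on the opposite side. On the left, the medians of glutamine, glutamate, proline and alanine (0.14 and 0.25) are above 0 with library totals and the hepatocyte reference, and those of branched-chain amino acids (0.11) and of phenylalanine and tyrosine (0.01) with the latter. On the right, the medians of glutamine, glutamate, proline and alanine become -0.09 and -0.14 and those of branched-chain amino acids 0.00 under both.

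Transport and control genes of these enzymes were read in the same fit. With TMM, of 9 amino acid transporters 4 fell with the diet, where 9.89% of all genes did, and 2 were higher with HQHF, where 7.85% were: Slc25a13, the aspartate and glutamate carrier of mitochondria, changed by -0.88 and 0.97, and Slc25a15, the ornithine carrier, by -0.76 and 0.80, although the first of these for Slc25a15 was 0.04 with the hepatocyte reference. Slc38a4 fell by 0.96 and gave 0.66 with HQHF (adjusted p = 0.0721). With library totals 0 of the 9 were called for the diet and 1, Slc38a2, was lower with HQHF, and with the hepatocyte reference 0 were called in both. Library totals called 6496 of all genes lower with HQHF. With TMM, of 13 regulators 2 fell, Ppara by 1.16 and Creb3l3 by 1.03, both transcription factors of the fasted liver, and 3 were higher with HQHF, Ppara by 1.09, Creb3l3 by 1.07 and Gcgr, the glucagon receptor, by 0.78. Nr3c1, the glucocorticoid receptor, gave 0.00 with TMM (adjusted p = 0.988) and 0.22 (adjusted p = 0.357), and Cebpa -0.02 and 0.52. With library totals Nr3c1, Cebpa and Foxa2 were called higher in HFD (0.58, 0.57 and 0.78) and 0 lower. Under that scaling 7041 of 13832 genes were called higher, and the median of all genes was 0.66. With the hepatocyte reference Ppargc1a alone was called higher (1.13), beside 4703 genes in all and a median of 0.81. With HQHF 0 regulators were called under either scaling. Hnf4a gave -0.59 (adjusted p = 0.107) and 0.51 (adjusted p = 0.175), and neither was called.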

How the data were processed

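Long RNA of mouse liver was analysed from the table of whole-number counts per gene that the authors deposited, unnormalised, for 12 libraries. The submitters' processing notes name HISAT2, RSEM and build GRCm39, without versions or roles, and the labels' protocols give a strand-preserving library kit after ribosomal RNA depletion. How reads were counted, and with which strand setting, is not given in the sources used here. The table's 18314 entries were 18227 Ensembl genes and 87 loci from assembly. No 2 libraries were identical. A miRNA table from the same study was not used here.

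Control 2 and HFD plus HQHF 3 were left out by the rule that defined the members, and 10 libraries were fitted in R 4.3.3 with edgeR 4.0.16 and limma 3.58.1 (filterByExpr by group, TMM, 1 mean per group, robust glmQLFit, glmQLFTest, Benjamini-Hochberg over 13832 genes, called at an adjusted p under 0.05). The SE is the log2 fold change divided by the square root of F. No batch term could be fitted, since each library has its own batch code. Promoters came from RefSeq tables (GRCm38.p6), and plots from matplotlib 3.10.9 and numpy 2.4.6 under Python 3.11.15.

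The members, the lists and the rule for names were chosen with earlier results of these data known. Besides the members, the 2 genes with the smallest p of each enzyme, transporter, regulator and zone list in HFD against control and in HFD plus HQHF against HFD were named, and the 5 genes most like the members' mean. Results for 2 listed enzymes are not reported here, and they are in no list count. Genes outside that rule (Glul, Cyp2f2, Cps1, Ass1, Axin2, Gcgr, Nr3c1, Cebpa, Hnf4a, Foxa2, Ppargc1a, Slc38a2 and the zone and cell type markers) were added as background after their values were seen. Alternatives were all 12 libraries, DESeq2 1.42.0, RLE scaling, library totals, the summed counts of 10 secreted hepatocyte proteins as library size, no filter, a filter of 1 CPM in 4 libraries, a model of just the 2 groups at hand, replicate numbers as a block, and each library left out. On simulated counts for HFD against control, 52.5% of 200 genes changed by 1 on the log2 scale were recovered among 13629 genes, with 1.87% false calls, and 100% of those changed by 2 among 13637, with 7.83%.

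Other lists gave these calls (HFD against control, then HFD plus HQHF against HFD). Kupffer cell markers had 2 of 6 lower, then 2 higher, endothelial markers 0 of 6 in both, cholangiocyte markers 1 of 5 higher, then 1 lower, and T and NK cell markers 3 of 6 higher, then 1 lower. Adipocyte markers had 0 of 3 tested in both, acinar markers 1 of 1 tested lower, then 0, and kidney markers 0 of 1 in both. The acinar call was Cela1, which rested on 1 control library at 421 CPM. The other controls had 6.18 and 7.43 CPM, and HFD libraries 4.23 to 8.39. Of all genes, 16.3% were called higher and 9.89% lower with TMM, then 7.85% higher and 11.1% lower. Periportal markers had 2 of 10 and pericentral markers 1 of 10 higher with HQHF with TMM, and with library totals 2 lower, and 1 higher and 2 lower. Library totals called 137 of all genes higher and 6496 lower with HQHF.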

Additional observations from a re-analysis of the deposited data

Results flagged for a closer look

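In the HFD group, the only one with 4 libraries, 40 named genes were checked for a library far from the other 3, and 6 had one. For independent, normally spread values chance gives about 1 in 20, and the shares over all genes tested, by library, are given below.

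Oat stood at 1070 CPM in HFD 3 and at 198 to 303 CPM in the other HFD libraries, a gap of 0.879 of the group's range. Mccc2 was at 33.6 CPM in HFD 3 and at 22.7 to 23.5 in the others. In HFD 4, Gnmt was at 811 CPM against 584 to 601, Ivd at 111 against 86.4 to 89.7, Gstz1 at 382 against 413 to 419, and Gpt at 203 against 115 to 130. For Gnmt, Ivd, Mccc2 and Gstz1 all HFD libraries, these included, lay below all control libraries.

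Over all 13832 genes tested, HFD 3 was the library far from the others in 497 genes (3.59%) and HFD 4 in 413 (2.99%). HFD 1 was so in 117 (0.846%) and HFD 2 in 92 (0.665%).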

How the results depend on the processing

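The 6 called members of HFD against control and the 4 of HFD plus HQHF against HFD kept their direction in all 19 alternatives, while their calls did not. The 6 became 0 with all 12 libraries, 2 with library totals and 0 with the hepatocyte reference, and ran from 4 to 6 when each library was left out. The 4 became 0, 1 and 0 in the same order and 7 with DESeq2, and ran from 1 to 5, with 1 only without HFD plus HQHF 1. For the other enzymes, 35 calls became 0, 10 and 4 (24 to 35 with a library left out) and 30 became 0, 9 and 3 (14 to 31). HFD plus HQHF against control gave 0 throughout for both (0 to 0). Over all genes, 3625 and 2618 calls became 7 and 1 with all 12 libraries and 7195 and 6633 with library totals. They became 4753 and 2315 with the hepatocyte reference and 4736 and 3880 with DESeq2. With a library left out, 11% to 28.5% and 4.44% to 24.2% of all genes were called. Among the members and the genes named by rule, called values that turned were Qdpr (0.01 with the hepatocyte reference), Pcbd1 (0.21 with library totals, 0.35 with the hepatocyte reference) and Slc25a15 (0.04 with the latter). The cause was not tested. Of 513 member values under these alternatives 456 kept their side of the threshold, 47 lost a call and 10 gained one, and 24 uncalled values changed sign.

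Same-numbered libraries deviated together little, with r from -0.05 to 0.12, over 0.1 in 1 of 8 pairs. Low values of r cannot show that the replicate numbers do not pair the samples. With the replicate block the members called were 6, 4 and 0 and the other enzymes 26, 25 and 0; Fah lost its HQHF call (0.71, adjusted p = 0.0542) and Oat gained one (2.13, adjusted p = 0.0296), beside 2840 and 1719 calls over all genes.

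With 3 or 4 libraries a group and 7 residual degrees of freedom, an uncalled member is not shown to be unchanged. In the simulation 52.5% of 2-fold changes were recovered with 200 genes changed. That share need not hold for the real counts, where 26.2% of genes were called for HFD against control. Fits without 1 library rest on as few as 2 per group. Depth was not the limit for these genes: the lowest member count was 1012 reads, for Sds in control 1.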
